A study of Mus musculus with 16 samples.

Results

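Tumor TCRβ repertoires from mice given the VIP-R antagonist ANT008 together with anti-PD-1 were compared with those from mice given anti-PD-1 alone. The comparison asked what the peptide added to anti-PD-1 when both were given over the same 10 days. The members were chosen by title, as the samples named for ANT008 plus PD-1 (combination) and for PD-1 (anti-PD-1), which gave 4 samples in each group and 8 of the 16 samples of the series. All mice were female C57BL/6 mice that carried KPC.Luc pancreatic cancer cells, a mouse tumor line that expresses luciferase, under the skin. The combination mice received 10 µg ANT008 subcutaneously every day and 200 µg anti-PD-1 intraperitoneally every 3 days, for 10 days. The anti-PD-1 mice received the same antibody with 10 µg of a scrambled peptide in place of ANT008, so that the antibody was shared and the peptide differed. The other groups, ANT008 with IgG and scrambled peptide with IgG (control), entered the shared fits and the test of whether the effect of ANT008 depended on the antibody. The labels call the samples T cells and give CD90.2 positive selection from tumor suspensions at a purity of 80 to 85%, in a protocol that ends with a different assay, whereas the study's methods for TCRβ sequencing describe harvested tumors without such a step, so whether T cells were selected first is not settled. The subcutaneous implant is a model of tumor growth outside the pancreas, and the files hold TCRβ rearrangements alone, so that neither the T cell subset of a clone nor the makeup of the remaining cells was measured.

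Each T cell builds its TCRβ chain by joining 1 V, 1 D and 1 J gene segment, with bases trimmed from the ends and non-templated bases inserted between them. The junction encodes the CDR3, the loop that touches the peptide held by an MHC molecule, and all descendants of 1 T cell carry the same rearrangement, so that a rearrangement that takes a large share of a tumor marks an expanded clone. PD-1 is an inhibitory receptor of activated T cells, and VIP is a neuropeptide that dampens T cell activation through its receptors, which ANT008 was made to block.

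In the 8 samples, 7180 to 72588 productive templates (in frame and without a stop codon; a template is 1 starting molecule as the assay counts it) were spread over 2526 to 13939 unique productive rearrangements. The 4 combination samples held 33405, 24525, 58676 and 36172 productive templates, and the 4 anti-PD-1 samples held 32193, 31598, 72588 and 7180. The last of these, anti-PD-1 4, was the shallowest of all 16 samples, and 1 template there is a share of 0.0139%. A count of 0 in it allows a share of up to 0.0418%, against 0.0122% in combination 2, the shallowest combination sample (3 templates of the total). Intervals and limits given here cover counting error alone. The labels and the methods name RNA as the extracted molecule whereas another passage of the study speaks of DNA, so a lower share of a clone could mean fewer cells or fewer transcripts per cell, which cannot be told apart here. No label states a batch. Any 2 of the 8 samples had between 0 and 11 identical rearrangements with 5 or more inserted bases in common, productive or not, and the median was 2. The median was 1 (range 0 to 2) between combination samples and 4 (range 1 to 11) between anti-PD-1 samples. The 11 were shared by anti-PD-1 1 and 2, and 9 of them had a single template in anti-PD-1 1; their part in the sharing of CDR3s between samples is given with it.

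The rearrangements below carry the findings, and they are printed 5′ to 3′ as deposited, with the bases of the CDR3 in capitals from its first codon to the end of the read, which stops 1 codon before the CDR3 does. The first set is the most frequent rearrangement behind the CDR3 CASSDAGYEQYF, on the top 50 list of every combination sample, together with its relative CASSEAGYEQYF, the largest clone of the 8 samples.
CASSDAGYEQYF, combination 1: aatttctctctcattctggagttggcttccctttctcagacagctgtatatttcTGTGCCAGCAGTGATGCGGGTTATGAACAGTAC
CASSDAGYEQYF, combination 2: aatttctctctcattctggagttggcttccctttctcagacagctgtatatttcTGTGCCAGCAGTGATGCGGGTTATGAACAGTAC
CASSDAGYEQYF, combination 3: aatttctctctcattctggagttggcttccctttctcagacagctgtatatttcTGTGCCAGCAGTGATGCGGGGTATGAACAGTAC
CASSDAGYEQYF, combination 4: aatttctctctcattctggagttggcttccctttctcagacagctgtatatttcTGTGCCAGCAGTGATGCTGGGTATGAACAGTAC
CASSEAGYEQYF, combination 3: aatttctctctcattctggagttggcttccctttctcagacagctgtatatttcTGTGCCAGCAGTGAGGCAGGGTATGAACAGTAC
The 4 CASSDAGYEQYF rearrangements joined Trbv13-3 to Trbj2-7, and the first and second were the same nucleotide sequence in different mice. The others differed from them by 1 or 2 bases, all inside the CDR3, with 0 to 2 inserted bases. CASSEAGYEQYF differed from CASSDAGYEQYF at 1 residue (D5E, counted from the first cysteine of the CDR3) and used the same gene segments. The second set is the most frequent rearrangement behind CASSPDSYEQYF, on the top 50 list of every anti-PD-1 sample.
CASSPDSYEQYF, anti-PD-1 1: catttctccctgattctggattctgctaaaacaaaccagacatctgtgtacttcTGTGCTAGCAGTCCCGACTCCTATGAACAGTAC
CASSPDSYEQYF, anti-PD-1 2: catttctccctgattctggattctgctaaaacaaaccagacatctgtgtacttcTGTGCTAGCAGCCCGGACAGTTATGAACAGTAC
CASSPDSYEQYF, anti-PD-1 3: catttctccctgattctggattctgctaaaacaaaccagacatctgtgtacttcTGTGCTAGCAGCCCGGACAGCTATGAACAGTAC
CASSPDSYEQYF, anti-PD-1 4: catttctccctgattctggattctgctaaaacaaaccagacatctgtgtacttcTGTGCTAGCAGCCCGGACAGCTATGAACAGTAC
These joined Trbv29, which the RefSeq table lists as a pseudogene, to Trbj2-7. Anti-PD-1 3 and 4 held the same nucleotide sequence, anti-PD-1 2 differed from it by 1 base and anti-PD-1 1 by 4, and all differences were inside the CDR3. The third set is the most frequent rearrangement of anti-PD-1 1, 2 and 3, 3 unlike CDR3s that shared the V segment Trbv14.
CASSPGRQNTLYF, anti-PD-1 1: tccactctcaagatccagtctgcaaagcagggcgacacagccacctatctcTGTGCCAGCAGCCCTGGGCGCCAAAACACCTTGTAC
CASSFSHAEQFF, anti-PD-1 2: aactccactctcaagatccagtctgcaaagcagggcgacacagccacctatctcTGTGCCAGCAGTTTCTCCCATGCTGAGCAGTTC
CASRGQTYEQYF, anti-PD-1 3: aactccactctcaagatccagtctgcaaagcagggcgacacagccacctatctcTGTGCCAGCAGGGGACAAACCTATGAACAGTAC

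The largest clone of each tumor was found in few other samples, with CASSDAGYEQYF the exception, and 3 of the 4 anti-PD-1 samples but no combination sample were led by Trbv14. Among the anti-PD-1 samples, the most frequent rearrangement took 17.5% of productive templates in sample 1 (95% Wilson interval 17.1 to 17.9), 5.51% in sample 2 (5.26 to 5.77) and 9.47% in sample 3 (9.26 to 9.68). These were the 3 Trbv14 rearrangements printed above. The fourth anti-PD-1 sample was led by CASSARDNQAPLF of Trbv3 and Trbj1-5 at 7.58% (6.99 to 8.21). Combination 1 was led by a 15-residue CDR3 of Trbv13-1 and Trbj2-2 at 7.31% (7.04 to 7.597). Combination 2 was led by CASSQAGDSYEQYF of Trbv5 and Trbj2-7 at 7.20% (6.88 to 7.53). Combination 3 and 4 were led by the Trbv13-3 rearrangements of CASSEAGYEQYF at 18.01% (17.7 to 18.3) and of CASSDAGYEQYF at 5.95% (5.72 to 6.20). Of these 8 CDR3s, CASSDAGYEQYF was found in 13 of the other 15 samples of the series and each of the others in 0 to 2. The Trbv14 CDR3 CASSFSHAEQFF, led by 1 rearrangement in anti-PD-1 2, was also at 5.66% in 1 sample given ANT008 alone. Within each tumor the leading rearrangement was joined by 3 to 38 further rearrangements of the same CDR3, which together made up 0.336 to 1.42% of the clone. Of these 138, 0 differed from the leading one by 1 base and 4 by 2 bases. The V gene was that of the leading one in 62 of the 138 and another in the remainder, and whether the assay made some of them was not tested.

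Trbv14 was the V gene with the smallest p in the test of combination against anti-PD-1, and most of its share in anti-PD-1 1, 2 and 3 was in a few large clones. Trbv14 made up 2.88%, 2.05%, 1.76% and 1.71% of productive templates in the 4 combination samples and 19.5%, 8.05%, 13.2% and 2.67% in the 4 anti-PD-1 samples. The lowest anti-PD-1 sample lay inside the combination range, so the groups overlapped. The means were 2.10% ± 0.542 and 10.8% ± 7.18 (SD, n = 4), a log2 fold change of -2.37 with SE 0.70 that did not pass edgeR's quasi-likelihood test (adjusted p = 0.0659, Benjamini-Hochberg over 25 V genes). The call depended on the fit, since the edgeR adjusted p was 0.00299 when the 8 samples were fitted without the other groups, 0.00669 with no filter on low counts and 0.0228 without anti-PD-1 4, but 0.145 without anti-PD-1 1. Trbv14 was also not called with rescaled library sizes (TMM) or with DESeq2. Nor was it called when anti-PD-1 2, anti-PD-1 3 or any combination sample was left out. Trbv14 rearrangements that each held above 0.5% of the sample summed to 17.5%, 6.95%, 11.5% and 0.766% of all productive templates in anti-PD-1 1 to 4. In combination 3 they summed to 0.643%, and the other combination samples had none. Outside such clones Trbv14 was at 1.94% ± 0.737 in the combination samples and 1.67% ± 0.400 in the anti-PD-1 samples. In each anti-PD-1 sample 1 of the 10 most frequent rearrangements used Trbv14, and in the combination samples 0 of 40 did. Counted once each, Trbv14 rearrangements were 2.30 to 2.65% of the unique productive rearrangements in the combination samples and 2.27 to 2.751% in the anti-PD-1 samples, a log2 fold change of -0.05 (adjusted p = 0.937). Without the most frequent rearrangement of each sample the log2 fold change was -0.38 (adjusted p = 0.733). Trbv14 was also variable without anti-PD-1, at 15.9%, 4.201%, 1.72% and 12.6% in the control samples and 12.3%, 1.51%, 2.57% and 9.75% in the samples given ANT008 alone, and the effect of ANT008 on it was not shown to differ with the antibody (log2 difference of differences -1.98, edgeR adjusted p = 0.318).

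**Figure D1:**
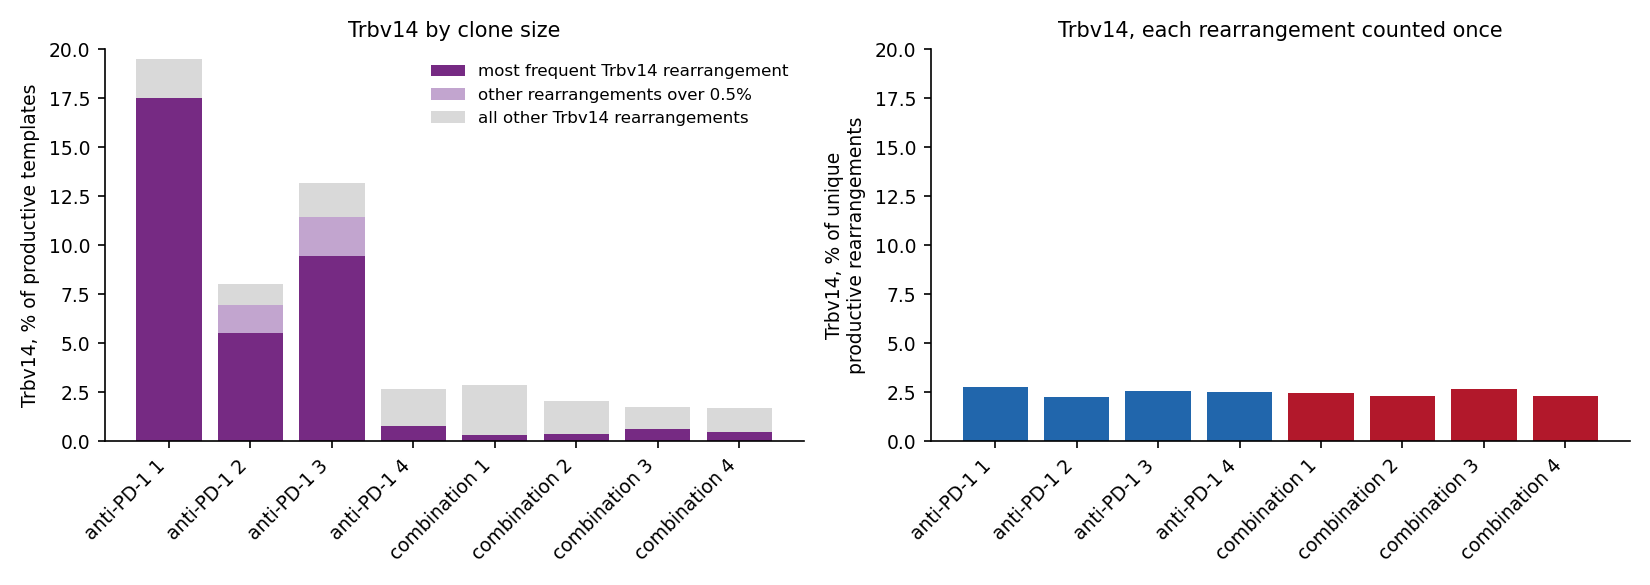
Share of Trbv14 in each of the 4 anti-PD-1 and 4 combination samples. Left, stacked bars give the productive templates, in percent, of the leading Trbv14 rearrangement, in other Trbv14 rearrangements above 0.5% and in the remainder. Right, bars give the percent of unique productive rearrangements. The left bars reach 19.5% in anti-PD-1 1 and stay at or below 2.88% in the combination samples, whereas on the right every bar lies between 2.27% and 2.751%.

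No V gene passed the test in either direction: 0 of 25 V genes were called (0% of those tested), and 2 of 25 (8%) had an unadjusted p below 0.05, Trbv14 and Trbv10, both lower in the combination. Trbv10, which the RefSeq table lists as a pseudogene although the deposited calls place it in in-frame rearrangements, rested on 1 tumor. It was at 0.0269%, 0.0122%, 0.00852% and 0.0194% in the combination samples and at 0.0311%, 0.00949%, 0.665% and 0% in the anti-PD-1 samples (log2 fold change -3.43, SE 1.25, edgeR adjusted p = 0.147), and 98.6% of its templates in anti-PD-1 3 were 1 rearrangement. Trbv22, also listed as a pseudogene, rested on 1 combination sample. Its share was 1.901%, 0.0408%, 0.0358% and 0.0636% against 0.329%, 0.0158%, 0.0400% and 0.125%, with a log2 fold change of 2.00 that became -1.44 without combination 1. Trbv26 was at 3.16%, 3.69%, 8.66% and 2.03% in the combination samples and between 1.92% and 2.67% in the anti-PD-1 samples (log2 fold change 0.90, SE 0.45, edgeR adjusted p = 0.367). In combination 3 the single rearrangement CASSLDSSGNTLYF made up 76.2% of it. Trbv15 was at 2.95%, 3.34%, 3.35% and 2.46% against 1.67%, 1.85%, 1.66% and 2.74%, so that 3 of the 4 combination samples stood above every anti-PD-1 sample (log2 fold change 0.61, edgeR adjusted p = 0.367). Trbv3 was at 6.79%, 5.99%, 5.16% and 10.9% against 8.37%, 12.5%, 10.0% and 15.0% (log2 fold change -0.67, SE 0.43, edgeR adjusted p = 0.409). Its clones above 0.5% summed to between 0% and 5.31% in the combination samples and between 2.97% and 8.23% in the anti-PD-1 samples.

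**Figure D2:**
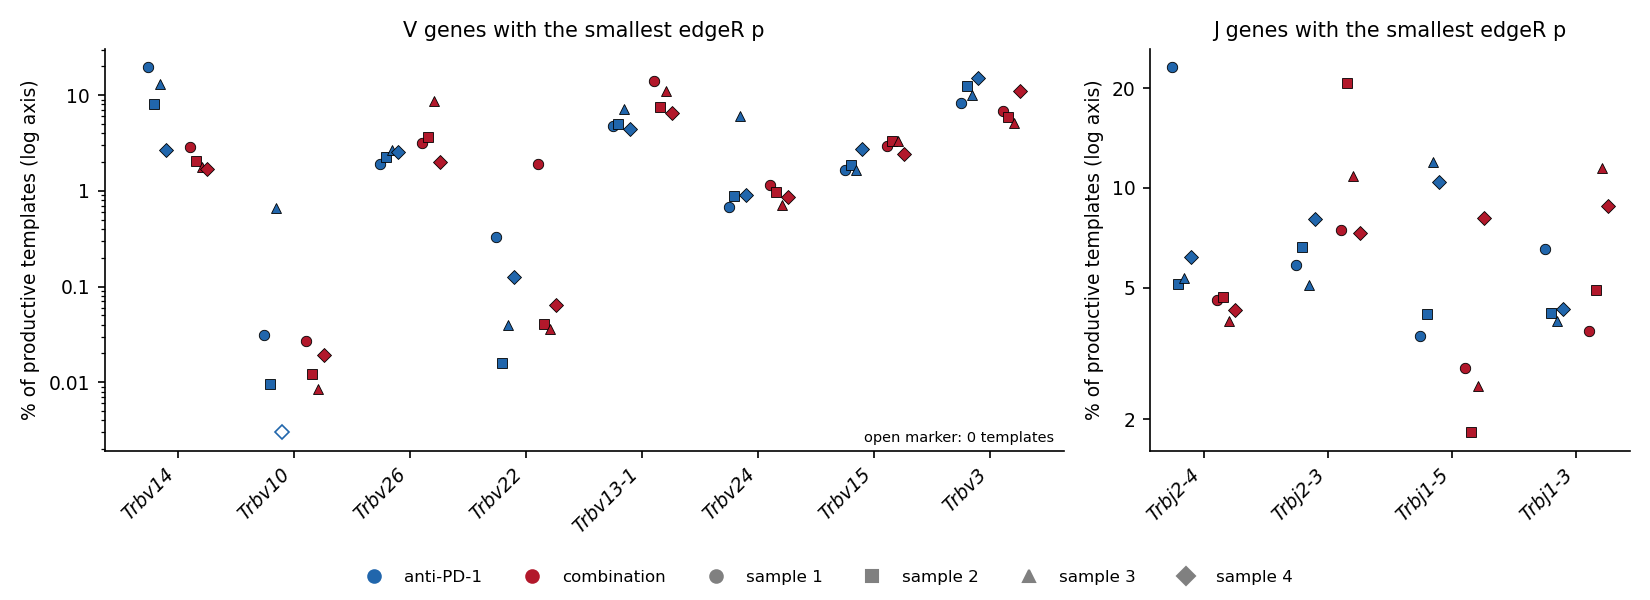
Share of the 8 V genes (left) and 4 J genes (right) with the smallest edgeR p in each sample, in percent of productive templates on a log axis. Blue symbols are the anti-PD-1 samples, red symbols the combination samples, and the symbol shape is the sample number; an open symbol stands for 0 templates. Among the 12 genes, Trbj2-4 is the one in which the groups do not overlap, at 3.96 to 4.67% in the combination samples and 5.11 to 23.1% in the anti-PD-1 samples.

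The Trbv13 family had higher estimates in the combination. Its 3 members, Trbv13-1, Trbv13-2 and Trbv13-3, together took 25.5%, 22.5%, 38.7% and 29.8% of productive templates in the combination samples. In the anti-PD-1 samples they took 17.5%, 18.9%, 19.9% and 17.8%, without overlap. None of the other gene groups followed stood apart in this way. Single large clones held part of the family's share, since combination 1, 3 and 4 were led by Trbv13 rearrangements at 7.31%, 18.01% and 5.95%. No anti-PD-1 sample was led by a Trbv13 rearrangement. Less its leading clone, the family's share of productive templates in combination 1 lay inside the anti-PD-1 range, so the lack of overlap rested on that clone. The family without leading clones was not tested. All 3 members had a fold change above 0 (median log2 fold change 0.65, against 0.09 over the 25 V genes, of which 13 were above 0), and 0 of 3 passed the test. Trbv13-1 was at 14.0%, 7.47%, 10.97% and 6.49% in the combination samples and 4.73%, 5.02%, 7.12% and 4.48% in the anti-PD-1 samples (log2 fold change 0.87, SE 0.47, edgeR adjusted p = 0.367). It held 10 rearrangements above 0.5% in the combination samples and 4 in the anti-PD-1 samples, and outside such clones it was at 4.70% ± 1.12 and 3.98% ± 0.492. Trbv13-3 was at 5.44%, 8.01%, 22.3% and 15.6% against 6.26%, 9.92%, 9.11% and 7.47% (log2 fold change 0.65, SE 0.43, edgeR adjusted p = 0.409), and its highest samples were those led by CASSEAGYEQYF and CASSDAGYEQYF. It held fewer rearrangements above 0.5% in the combination samples, 9 against 15, and outside such clones it was at 3.97% ± 0.622 and 3.94% ± 0.535. The V genes that invariant NKT cells favour in mice (Trbv1, Trbv13-2 and Trbv29) summed to 14.7% ± 2.41 and 14.9% ± 2.51, with 1 of 3 above 0, a median log2 fold change of -0.24 and 0 of 3 called. Those that MAIT cells favour (Trbv13-2, Trbv13-3 and Trbv19) summed to 27.6% ± 6.54 and 21.98% ± 3.19, with 2 of 3 above 0, a median of 0.40 and 0 of 3 called. Other T cells use these V genes too, so the sums do not count NKT or MAIT cells, and the Trbv13 genes stand in more than 1 of these groups.

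Among J genes, 0 of 12 were called (0%) and 2 of 12 (16.7%) had an unadjusted p below 0.05. Trbj2-4 was at 4.60%, 4.67%, 3.96% and 4.27% in the combination samples and 23.1%, 5.11%, 5.33% and 6.20% in the anti-PD-1 samples. The groups did not overlap, as in 1 of the 12 J genes (8.33%) and 0 of the 25 V genes (0%). The log2 fold change was -1.18 (SE 0.46, edgeR adjusted p = 0.166) and -0.34 without anti-PD-1 1, where the Trbv14 clone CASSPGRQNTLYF held 75.8% of the Trbj2-4 templates. Outside clones above 0.5%, Trbj2-4 was at 4.06% ± 0.542 and 4.26% ± 0.760. Trbj2-3 was at 7.48%, 20.7%, 10.8% and 7.32% in the combination samples and 5.85%, 6.64%, 5.09% and 8.06% in the anti-PD-1 samples (log2 fold change 0.86, SE 0.36, edgeR adjusted p = 0.166). In combination 2 it held 7 of the rearrangements above 0.5%, and in combination 3 a 17-residue CDR3 of Trbv2 made up 53.5% of it. Trbj1-5 (log2 fold change -0.98, SE 0.62, edgeR adjusted p = 0.450) and Trbj1-3 (0.61, SE 0.42, adjusted p = 0.450) followed. The whole Trbj1 cluster took 27.1% ± 5.74 and 28.7% ± 4.90, and the whole Trbj2 cluster 72.7% ± 5.74 and 71.2% ± 4.92, of productive templates.

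The number of large clones, a count that was added after the data were seen, had a lower mean in the combination samples. These held 11, 21, 14 and 13 rearrangements above 0.5%, and the anti-PD-1 samples 16, 27, 30 and 20. The means were 14.8 ± 4.35 and 23.3 ± 6.40, and combination 2 lay inside the anti-PD-1 range (difference -8.50, SE 3.87, two-sided exact permutation p = 0.0857). Together these clones took 31.9% ± 11.2 and 38.4% ± 11.2 of productive templates (exact permutation p = 0.457).

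The diversity measures did not separate the groups. Shannon's entropy was 11.26, 9.66, 8.56 and 10.64 bits in the combination samples and 9.87, 8.81, 9.13 and 9.64 bits in the anti-PD-1 samples. Combination 1 and 4 were the highest of the 8 samples and combination 3, with its clone of 18.01%, was the lowest. The mean was 10.03 ± 1.18 bits against 9.36 ± 0.479 (difference 0.667, SE 0.636, two-sided exact permutation p = 0.343, adjusted p = 0.914 over 8 measures). The smallest p that 4 samples against 4 allow is 0.0286. When every sample was drawn to 7180 productive templates, the means were 9.27 ± 1.06 and 8.89 ± 0.624 bits (difference 0.385, SE 0.614, exact permutation p = 0.514). Unique productive rearrangements numbered 13238, 6640, 12336 and 12459 in the combination samples and 9851, 5899, 13939 and 2526 in the anti-PD-1 samples. On the log2 scale the difference was 0.68 (SE 0.58, exact permutation p = 0.286) over all templates and 0.28 (SE 0.23, exact permutation p = 0.257) at equal depth. Rearrangements with 1 template were 77.1% ± 3.51 and 72.4% ± 5.72 of the unique rearrangements (exact permutation p = 0.229). The most frequent rearrangement took 9.62% ± 5.63 and 10.0% ± 5.26 of productive templates, the 10 most frequent took 28.6% ± 10.2 and 28.5% ± 6.46, and clonality (1 minus entropy over its maximum) was 0.251 ± 0.0831 and 0.259 ± 0.0815. The inverse Simpson index differed by 0.23 on the log2 scale (SE 0.69). In 0 of the 8 measures (0%) did the groups stand apart, and 0 of 8 passed the adjusted threshold. A p above the threshold does not show that the groups were alike: with an SE of 0.636 bits, a difference in entropy of the size measured could not be told from the spread between mice.

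**Figure D3:**
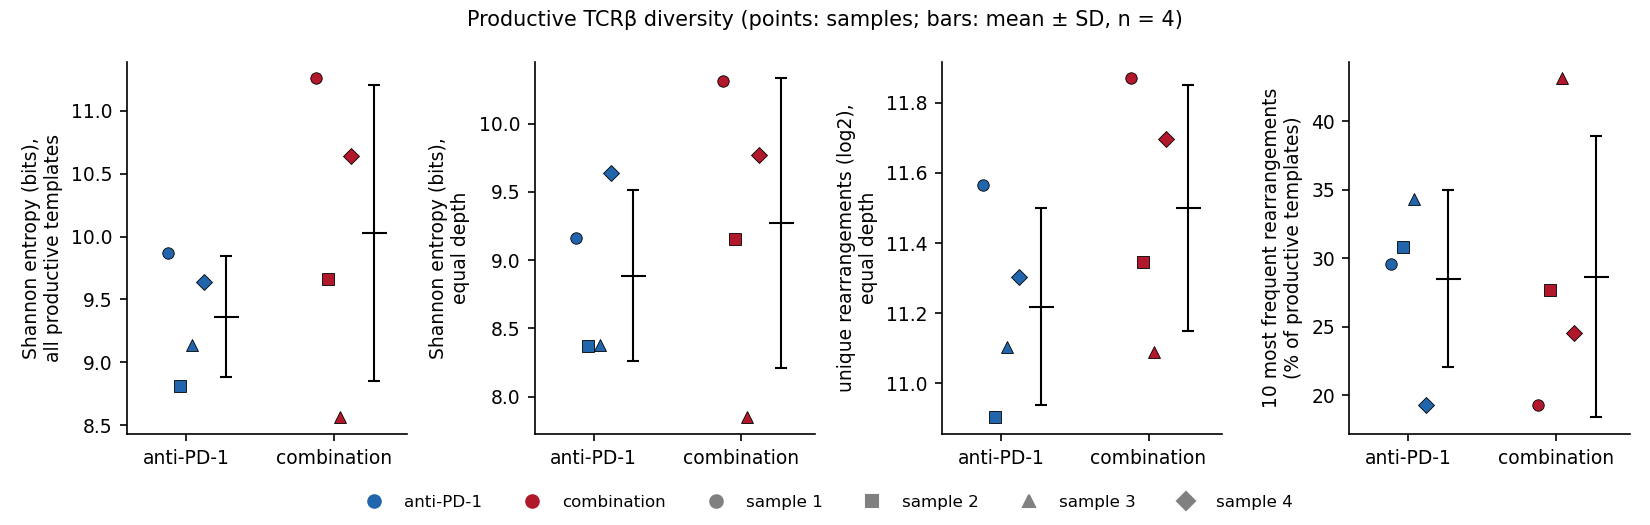
Diversity of the productive repertoire in each sample: Shannon's entropy over all productive templates and at equal depth (7180 templates), unique rearrangements at equal depth on the log2 scale, and the summed share of the 10 leading rearrangements in percent. Points are samples, with the shape giving the sample number, and bars are mean ± SD (n = 4). The groups overlap in every panel, and combination 3 is the lowest in entropy at 8.56 bits and the highest in the last panel at 43.1%.

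When each productive rearrangement was counted once, the groups differed little in their junctions, and no difference passed after adjustment. J segments had lost 2.78, 2.79, 2.82 and 2.81 bases on average in the combination samples and 2.84, 2.93, 2.83 and 2.84 in the anti-PD-1 samples. The combination samples were all lower, as in 1 of the 12 features tested (8.33%). The difference was -0.0630 bases (SE 0.0249, exact permutation p = 0.0286, adjusted p = 0.229 over 12 features), and it was 0.00301 among rearrangements with 2 or more templates. CDR3 length was 14.04 ± 0.0247 amino acids against 13.98 ± 0.0289 (exact permutation p = 0.0571), and -0.0160 amino acids separated the groups among rearrangements with 2 or more templates. Trbd1 made up 50.7% ± 0.861 and 52.3% ± 0.571 of the resolved D genes (exact permutation p = 0.0571). Inserted bases numbered 3.57 ± 0.0378 and 3.53 ± 0.0495 per rearrangement (exact permutation p = 0.257), V bases lost numbered 2.64 ± 0.0216 and 2.66 ± 0.0533, and net charge was -0.767 ± 0.0127 and -0.773 ± 0.0138. Trbj1 rearrangements were 31.9% ± 1.02 and 32.5% ± 0.465 of the unique rearrangements, and 1.05 rearrangements encoded each CDR3 in both groups at equal depth. The other features, D bases lost, rearrangements without inserted bases, hydropathy of the middle of the loop and cysteines inside it, had exact permutation p-values between 0.229 and 1. None of the 12 passed after adjustment.

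Weighted by templates, so that a clone counted by its size, 2 of 11 features (18.2%) separated the groups without overlap. V bases lost were 2.52, 2.54, 2.57 and 2.45 in the combination samples and 2.81, 2.799, 2.81 and 2.99 in the anti-PD-1 samples (difference -0.330, SE 0.0525, exact permutation p = 0.0286, adjusted p = 0.157). Net charge was -0.867, -0.960, -1.16 and -0.880 against -0.588, -0.825, -0.755 and -0.829 (difference -0.218, SE 0.0882, exact permutation p = 0.0286, adjusted p = 0.157). For V bases lost the effect of ANT008 differed with the antibody (difference of differences -0.871, exact permutation p = 0.000408, adjusted p = 0.00449). The larger part of it came from ANT008 alone against control, where the difference went the other way. Both differences between combination and anti-PD-1 were smaller once the largest clones were left out. Without the most frequent rearrangement of each sample, an alternative added after the data were seen, the difference in V bases lost was -0.0649 (SE 0.144, exact permutation p = 0.686) and that in net charge -0.0325 (SE 0.0446, exact permutation p = 0.514). The difference of differences in V bases lost was then -0.434 (exact permutation p = 0.0849). Without the 10 most frequent rearrangements of each sample it was -0.179 (exact permutation p = 0.184).

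**Figure D4:**
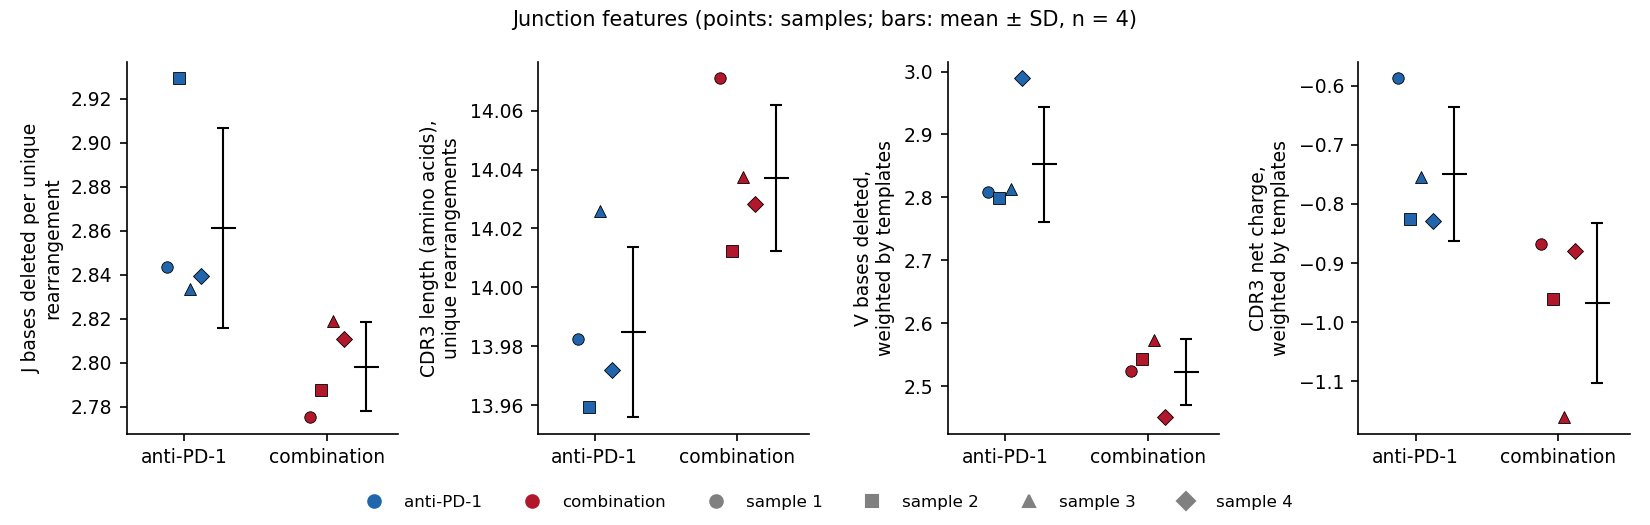
Junction features in each sample: J bases lost and CDR3 length over unique productive rearrangements, and V bases lost and net charge of the CDR3 weighted by templates. Points are samples, with the shape giving the sample number, and bars are mean ± SD (n = 4). In all panels but CDR3 length the groups do not overlap, and the differences in V bases lost and net charge are -0.0649 and -0.0325 without the most frequent rearrangement of each sample.

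Clones found in several tumors of a group were counted as CDR3s, by amino acids, that ranked in the top 50 of at least 2 samples. The combination samples shared 12 such CDR3s and the anti-PD-1 samples 8 (exact permutation p = 0.314, with the sharing redone for each of the 70 arrangements of the labels), and 4 stood on both lists, 33.3% of the first and 50% of the second. Drawn to equal depth, the numbers were 11.01 and 7.91 (exact permutation p = 0.257). In both groups 2 CDR3s were shared by 3 or more samples, and as nucleotide sequences 3 and 2 rearrangements were shared. Without combination 1 or without anti-PD-1 4, with sets of 3 samples compared, the direction turned (4 against 5 and 7 against 8). The shared CDR3s took 6.94% and 7.12% of the productive templates of their group's samples on average, and the mean Morisita-Horn index of overlap within a group was 0.0404 and 0.0415 (exact permutation p = 1 for both).

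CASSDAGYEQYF was the CDR3 shared by all 4 combination samples. It took 1.55%, 1.10%, 0.360% and 6.04% of their productive templates, and 1.82%, 0%, 0.127% and 0% in the anti-PD-1 samples. The groups overlapped, and anti-PD-1 1 stood above 3 of the 4 combination samples. The CDR3 was also found in the other groups, at 0.138%, 1.17%, 0.00787% and 5.38% in the control samples and 0.0132%, 2.34%, 0.884% and 1.20% in those given ANT008 alone. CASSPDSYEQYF was on both lists, in the top 50 of 4 anti-PD-1 and 2 combination samples. It took 1.98%, 1.25%, 0.455% and 2.83% there and 0.407%, 0.110%, 0.0187% and 0.487% in the combination samples, so that combination 4 was the one combination sample above the lowest anti-PD-1 sample. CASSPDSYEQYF was not particular to anti-PD-1. Its share ran from 0% to 1.08% in the control samples and from 0.0347% to 2.07% in those given ANT008 alone. Of its templates in the 8 samples 67.9% were Trbv29 with Trbj2-7, while in combination 4 a Trbv14 rearrangement made up 0.476% of the sample. A 15-residue CDR3 of Trbv16 and Trbj2-7 was on both lists, in the top 50 of 3 combination and 4 anti-PD-1 samples. It took 2.01%, 0.310%, 0% and 0.523% against 0.960%, 1.37%, 1.56% and 0.265%, and the groups overlapped. Its share was 9.14%, 1.18%, 1.05% and 0.00268% in the control samples and 1.10%, 0.425%, 0.121% and 4.32% with ANT008 alone.

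Of the CDR3s shared by 2 samples of a group, those with the highest mean share in each list are given here. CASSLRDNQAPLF of Trbv3 and Trbj1-5, on both lists, was at 4.59% in combination 4 and 5.92% in anti-PD-1 3, and it differs from the leading CDR3 of anti-PD-1 4 at 1 residue (A5L, from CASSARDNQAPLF). It was also at 0.233 to 1.54% in the control samples and at 5.83% in 1 sample given ANT008 alone, with at most 0.00304% in the others given ANT008 alone. A 17-residue CDR3 of Trbv2 and Trbj2-3 was at 3.44% in combination 2 and 0.182% in combination 4, and was not found in any anti-PD-1 sample, whereas it was at 2.85% and 0.631% in 2 control samples. The CDR3 that differs from it at 1 residue (F11Y) was at 5.82% in combination 3 and at 0 in the other combination and the anti-PD-1 samples. This F11Y relative was also at 1.12% in control 2 and at 0.607% in 1 sample given ANT008 alone. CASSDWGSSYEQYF of Trbv13-1 was at 0.599% and 0.869% in combination 1 and 2 and at 0% to 0.153% in the anti-PD-1 samples. On the anti-PD-1 list, the Trbv13-3 and Trbj2-1 pair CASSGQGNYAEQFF and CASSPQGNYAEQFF (G5P) had like shares, at 2.86% and 2.65% in anti-PD-1 2 and at 0.583% and 0.547% in anti-PD-1 3. In the combination samples the pair reached at most 0.00170% and 0.0426%. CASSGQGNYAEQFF was not particular to anti-PD-1, at 1.06% in control 1 and at 0.855% and 0.631% in 2 samples given ANT008 alone. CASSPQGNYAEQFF reached at most 0.00243% in the control samples and was at 0 with ANT008 alone.

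**Figure D5:**
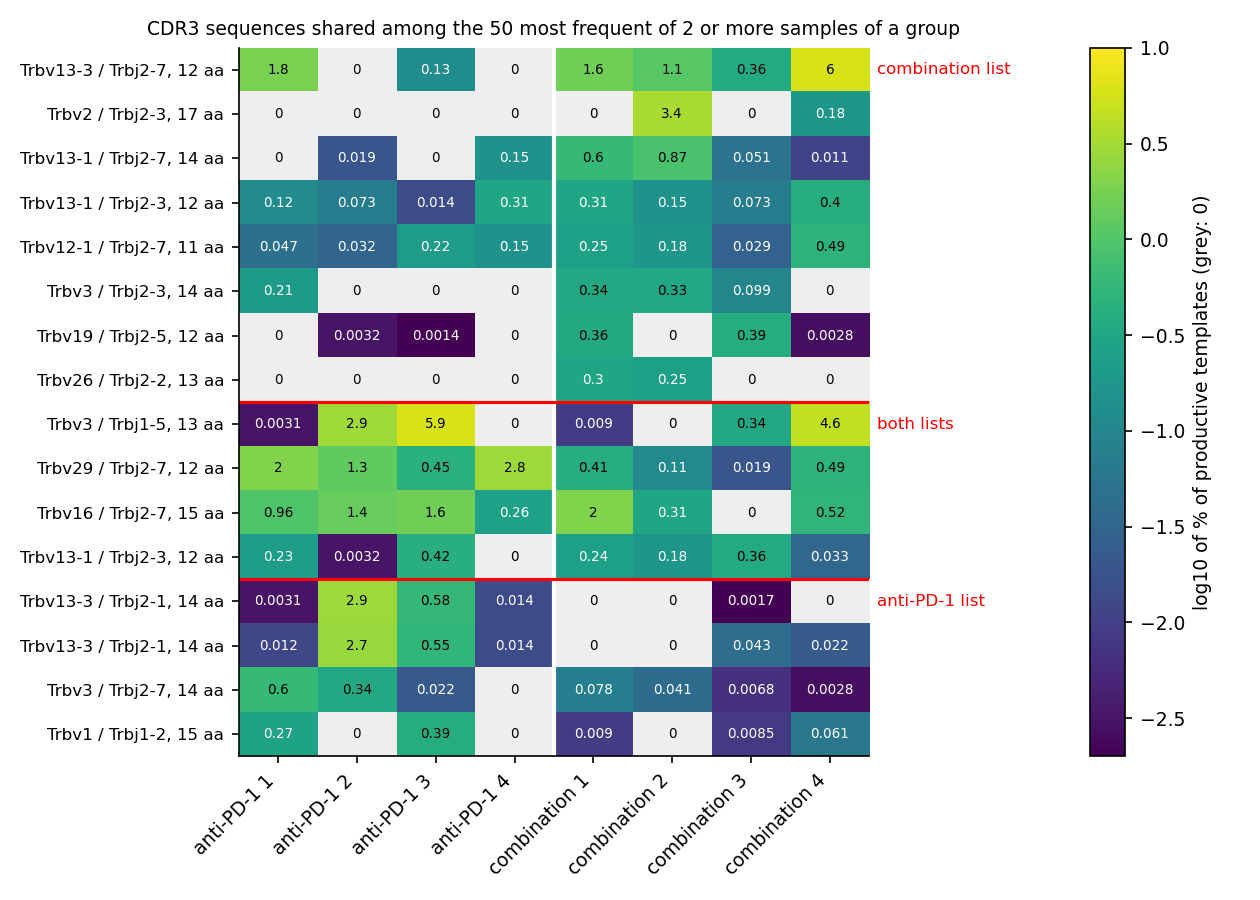
Share of the 16 CDR3s in the top 50 of at least 2 samples of a group, in percent of productive templates, printed in each cell and coloured on a log10 scale (grey: 0). Columns are the 8 samples, and rows are CDR3s named by leading V and J gene and length, grouped by list: 8 on the combination list, 4 on both and 4 on the anti-PD-1 list. The first row is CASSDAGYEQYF, with values in all 4 combination samples and in 2 anti-PD-1 samples.

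CDR3s of any rank were counted next. At equal depth 409 CDR3s were found in 2 or more combination samples and 316 in 2 or more anti-PD-1 samples (exact permutation p = 0.257), 65.4 and 47.7 in 3 or more (p = 0.0857, exact permutation) and 12.8 and 9.30 in all 4 (p = 0.286, exact permutation). Over all templates 7 CDR3s were found in all 4 combination samples and no anti-PD-1 sample, and 2 in all 4 anti-PD-1 samples and no combination sample, out of 60368, while 16 were found in all 8. Over all templates 2602 and 1580 CDR3s were found in 2 or more samples of a group, and 2593 and 1559 without the identical rearrangements of 5 or more inserted bases. The 2 were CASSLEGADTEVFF, at 0.00138 to 0.0139%, and a 15-residue CDR3 of Trbv29 and Trbj2-1, at 0.00138 to 0.0279%, and the 7 were at 0.00170 to 0.0163%. The shares of the 7 all lie below the limit that a count of 0 allows in anti-PD-1 4, so their absence there was not detectable at this depth as a difference.

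In the test of public clones, CDR3s found in 4 or more of the 16 samples, 0 of 2188 were called (0%) by edgeR, 247 (11.3%) had an unadjusted p below 0.05, and DESeq2 called 4. Those with the smallest p among CDR3s higher in the combination were the F11Y relative of the 17-residue CDR3 above and a 14-residue CDR3 of Trbv13-1 and Trbj2-2, at 5.82% and 4.17% in combination 3. Those with the smallest p among CDR3s lower in the combination were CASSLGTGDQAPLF of Trbv12-2, at 3.55% in anti-PD-1 3 and 0 in the other 7 samples, and a 13-residue CDR3 of Trbv16 and Trbj1-3, at 0.154% and 0.0279% in anti-PD-1 3 and 4. For all 4 the edgeR adjusted p was 0.425. With most CDR3s at 0 in several samples, a count of 0 called does not show that clones were alike.

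Whether ANT008 acted differently with and without anti-PD-1 was tested as a difference of differences. Entropy was 0.667 bits higher with ANT008 among mice given anti-PD-1 and 0.713 bits higher among mice given IgG (difference -0.0455, exact permutation p = 0.969 over 4900 assignments). In log2 of unique rearrangements the difference was 1.00 over all templates (exact permutation p = 0.229) and -0.0288 at equal depth (exact permutation p = 0.943). Among V genes 1 of 25 (4%) was called. Trbv24 had a log2 fold change of -1.22 for combination over anti-PD-1 (edgeR adjusted p = 0.367) and of 2.74 for ANT008 alone over control (adjusted p = 0.0249), a difference of -3.96 (edgeR adjusted p = 0.0157). Its share was 1.16%, 0.970%, 0.707% and 0.865% in the combination samples and 0.677%, 0.889%, 6.10% and 0.905% in the anti-PD-1 samples. It was 0.776%, 1.44%, 8.29% and 8.18% with ANT008 alone and 0.946%, 0.657%, 0.790% and 0.397% in the control samples, so that the difference rested on 2 ANT008 samples and on anti-PD-1 3, where 86.5% of Trbv24 was the rearrangement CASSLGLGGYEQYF. Without anti-PD-1 3 the difference was -2.57 (edgeR adjusted p = 0.0860). Among J genes 0 of 12 (0%) were called, and the smallest adjusted p was 0.0741, for Trbj2-1 and Trbj2-4.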

How the data were processed

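TCRβ rearrangements were measured by immunoSEQ in 16 tumor samples labelled as T cells, 4 in each of 4 groups. The authors deposited 1 table per sample, in which each 87-base rearrangement has a count of templates, a fraction (the productive frequency), V, D and J calls, CDR3 length and numbers of deleted and inserted bases; the deposited entropy score was reproduced within 4.82e-07 from the counts. The aligner and genome build are not given in the sources used here. Groups came from sample titles, and the numbers in titles were used only as names, since the files carry other animal numbers. In-frame rearrangements were kept. Gene symbols were matched to the RefSeq table, of which no coordinates were used.

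Diversity, CDR3 features and sharing were compared by two-sided exact permutation of the 8 group labels (70 arrangements), with Benjamini-Hochberg adjustment within 8 measures or 12 features (Python 3.11.15, NumPy 2.4.6, pandas 2.3.3, SciPy 1.17.1, matplotlib 3.10.9). Template counts of V genes, J genes and public CDR3s were fitted over all 16 samples, with library sizes fixed at the productive total, by edgeR 4.0.16 in R 4.3.3 (quasi-likelihood, adjusted p below 0.05; V and J genes with at least 10 templates in 4 samples). DESeq2 1.42.0 was an alternative. Equal depth meant 100 draws of 7180 templates. SE of a fold change was its size over the square root of F. The fits were also run on simulated data. Changes of 2 and 4 on the log2 scale put into V and J genes were recovered, with a false call among V genes. The simulated counts had the same spread for every gene and no expanded clones, and smaller changes were not simulated. In the measured data Trbv14 and Trbv10 had estimates beyond 2 in size and were not called. The counts of V and J genes called therefore do not show that changes, large or small, were absent. Changes of these sizes put into public CDR3s were not recovered, so the count of public CDR3s called says nothing on whether clones differed. Named genes were the 8 V and 4 J genes with the smallest p and 5 gene groups; named clones were each sample's leading rearrangement, CDR3s in the top 50 of 3 or more samples of a group, the 3 highest of those shared by 2, and the 2 public CDR3s with the smallest p in each direction. Members and lists were chosen with earlier results of these data known. The p-values measure the spread between these samples, taken as separate mice.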

Additional observations from a re-analysis of the deposited data

Results flagged for a closer look

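In 9 of 56 groups of 4 samples examined for measures and genes, and in 15 of 38 examined for named clones, 1 sample stood far from the other 3, where chance gives about 1 group in 20. The named clones were largely chosen because they lead 1 sample, so such gaps are built into that choice.

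Among measures, combination 2 was low in unique rearrangements (12.70 on the log2 scale), combination 3 was high in its most frequent rearrangement (18.01%) and anti-PD-1 2 was high in J bases lost (2.93). Among genes, anti-PD-1 3 was high in Trbv10 (0.665%) and Trbv24 (6.10%), anti-PD-1 1 in Trbj2-4 (23.1%) and Trbj1-3 (6.52%), combination 1 in Trbv22 (1.901%) and combination 4 in Trbj1-5 (8.11%).

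Among clones, combination 1 stood apart in its leading 15-residue CDR3 of Trbv13-1 (7.39%), and combination 2 in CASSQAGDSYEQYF (7.26%) and the 17-residue CDR3 of Trbv2 (3.44%). Combination 3 did so in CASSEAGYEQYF (18.2%), the F11Y relative of that Trbv2 CDR3 (5.82%), a 14-residue CDR3 of Trbv13-1 (4.17%) and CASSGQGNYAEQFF (0.00170%, a single template), and combination 4 in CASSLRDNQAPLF (4.59%). Anti-PD-1 1 stood apart in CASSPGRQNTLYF (17.6%) and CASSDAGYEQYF (1.82%), anti-PD-1 2 in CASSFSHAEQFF (5.56%), anti-PD-1 3 in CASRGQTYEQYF (9.50%) and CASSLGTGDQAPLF (3.55%), and anti-PD-1 4 in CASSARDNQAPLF (7.62%) and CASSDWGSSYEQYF (0.153%).

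The effect of ANT008 on Trbv24 differed between mice given anti-PD-1 and mice given IgG by -3.96 on the log2 scale (edgeR adjusted p = 0.0157), and by -2.57 without anti-PD-1 3 (edgeR adjusted p = 0.0860).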

How the results depend on the processing

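Over 45 results and 535 alternatives, 466 kept direction and side of the threshold, 47 changed direction, 6 were weaker, 9 stronger and 7 moved; the cause was not tested. 1 V gene was called in place of 0 in the fit of the 8 samples alone, with no filter, with the replicate block and without the 10 most frequent rearrangements (Trbv10 in the last, Trbv14 otherwise), and 0 to 1 when 1 sample was left out. DESeq2 called 4 public CDR3s. With the replicate number as a block, Trbv14 was at -2.10 (edgeR adjusted p = 1.87e-05). Same-numbered samples correlated at 0.444, 0.340, -0.0766 and -0.116 in their deviations over V genes, so the title numbers were not taken as pairs. The files carry other animal numbers, by which combination 1, 2 and 4 match anti-PD-1 2, 3 and 4 at -0.614, -0.461 and -0.116, so the block above does not stand for shared animals or batches; the block changed no J gene or public CDR3 call.

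In out-of-frame rearrangements the direction turned for inverse Simpson (-0.79 on the log2 scale), clonality (0.0204), the most frequent rearrangement (6.24 points), inserted bases (-0.0211), Trbd1 (0.759 points), Trbv24 (0.10), Trbv3 (0.0402), Trbj2-4 (0.23), Trbj2-3 (-0.11) and Trbj1-5 (0.21). Among rearrangements with 2 or more templates it turned for CDR3 length (-0.0160), inserted bases (-0.0341), V bases lost (0.0332), J bases lost (0.00301) and rearrangements per CDR3 (0.000985, and 0.0102 when not drawn to equal depth). Clonality was 0.0116 without rearrangements of 1 template, the 10 most frequent CDR3s differed by -0.0785 points, and net charge weighted by templates by -0.218. Counted once each, Trbv26 was at -0.0727 and Trbv15 at -0.0563. Without the 10 most frequent rearrangements Trbv22 was at -0.88, Trbv24 at 0.16 and Trbj1-5 at 0.13. The difference of differences in log2 unique rearrangements was -0.0288 at equal depth.

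Leaving out each sample in turn gave -0.21 to 0.90 for log2 productive templates, -0.10 to 0.77 for inverse Simpson, -0.0474 to 0.0179 for clonality, -3.195 to 2.10 points for the most frequent rearrangement, -4.68 to 3.26 points for the 10 most frequent, -0.000994 to 0.0113 for net charge, -1 to 4 for shared clones, -1.44 to 3.28 for Trbv22 and -1.51 to 0.17 for Trbv24. The difference of differences in entropy ran from -0.455 to 0.443 bits, and its V gene count from 0 (without anti-PD-1 3) to 1. Depth limited anti-PD-1 4 most, with 7180 productive templates.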
